A study of Mus musculus with 8 samples.

Results

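The Zic genes encode zinc finger transcription factors. The rule took every probe that the platform annotation assigns to Zic1, Zic2, Zic4 or Zic5, and the family was picked on its measured levels in the comparison described here, above all those of Zic1 in the null, so these levels are given as a description. It found 9 of the 45281 probes on the array, for these 4 genes: 1 probe for Zic1, 2 for Zic2, 5 for Zic4 and 1 for Zic5. Only 2 of the 9, the Zic1 probe and 1 Zic2 probe, were above background on at least 4 of the 8 arrays and so entered the comparison over 20593 probes. The arrays carried RNA of forelimb cells of C57BL/6J;129 mouse embryos at E12.5, sorted for green fluorescence from the locus of the homeobox gene Bapx1 (Nkx3-2). The 4 Bapx1 null samples were homozygous for the allele Bapx1 tm4.Tlu, in which EGFP sits directly behind the start codon and a short stretch of the gene is removed. The 4 wildtype samples were heterozygous for Bapx1 tm2.Tlu, in which Bapx1 stays intact and EGFP is translated from the same transcript through an IRES placed behind the coding sequence. Both groups therefore express EGFP under Bapx1 control, but reporter design and copy number go with the genotype and cannot be told apart from it. The study describes the replicates as biological, and the sources used here do not say how many embryos, or of which sex, went into each.

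Zic proteins share their finger domain with the Gli and Glis factors and bind related DNA sequences. In mouse embryos they are best known from the dorsal neural tube, the neural crest and the dorsal somite. Zic1 and Zic4 are expressed in overlapping domains of the dorsal nervous system and somites, Zic2 acts in forebrain patterning and neurulation, and Zic5 in neural crest and neural tube. These genes lie in head-to-head pairs, Zic1 with Zic4 and Zic2 with Zic5.

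The targeted gene was looked at first. The brighter of the 2 Bapx1 probes (ILMN_2687592) had normalized log2 levels of 8.10, 7.81, 7.77 and 7.85 in null replicates 1 to 4, against 4.48, 4.46, 4.53 and 4.51 in the wildtype replicates. It was detected on 4 null arrays and 0 wildtype arrays, although the wildtype cells were also sorted on this locus. The position of the probes relative to the removed stretch and to the reporter was not analysed here, so they do not check the labels, and every direction given for the arrays labelled null and wildtype rests on the labels. Defining limb genes were present in both groups: Hoxd10 lay between 12.54 and 12.74 on all 8 arrays, and Tbx5, a forelimb factor, between 5.20 and 6.17. Median probe intensity was between 57.9 and 70.4 per array, and 43.8% to 46.1% of probes were detected, meaning a detection p under 0.05.

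Zic1 was near background in wildtype cells and present on every null array, at very uneven levels. The intensity of its probe (ILMN_2491186) was 621, 265, 123 and 1153 in null replicates 1, 2, 3 and 4, and 68.6, 61.6, 74.3 and 53.7 in wildtype replicates 1 to 4. After background correction and normalization the log2 levels were 9.56, 7.68, 6.30 and 10.15 in the null replicates, against 4.83, 4.91, 5.19 and 4.68 in the wildtype replicates. Null replicates 1 and 4 were high, replicate 2 was intermediate and replicate 3 was low, yet the lowest null array lay above the highest wildtype array. The probe was detected on 4 null arrays and on 1 wildtype array, replicate 3. The mean level was 8.42 ± 1.76 in the null and 4.90 ± 0.22 in the wildtype (SD, n = 4 each), a log2 difference of 3.52 ± 0.71 (SE). Because 3 of the 4 wildtype arrays were not above background, its size depends on the background treatment: it was 2.65 without correction, 2.42 with saddle-point normexp and 2.62 in the deposited log2 values. Since the gene was chosen for this difference, no test is attached to it. In 14.5% of the 11037 genes tested the groups did not overlap, and nothing is read from Zic1 being among them. In sorted bulk samples, more cells of a type and more RNA per cell cannot be told apart, so these levels do not say whether few or many cells carried Zic1 RNA.

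The spread among the null arrays was wide. The rule names this spread and the family was picked on these levels, so the ranks below are a description and no test. The highest null intensity was 9.41 times the lowest, and the log2 range was 3.85 in the null against 0.52 in the wildtype. The null SD of 1.76 was number 5 of 20593 kept probes, behind 3 probes of Xist, the transcript that coats the inactive X chromosome, and 1 probe of the major urinary protein gene Mup2. The median kept probe had a null SD of 0.14. In the wildtype the Zic1 probe ranked 4967 by SD, with a median wildtype SD over all kept probes of 0.14. Over all 8 arrays, the root mean square deviation of Zic1 from its own mean was 2.07, which no other of 11037 genes reached, against a median of 0.15.

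**Figure D1:**
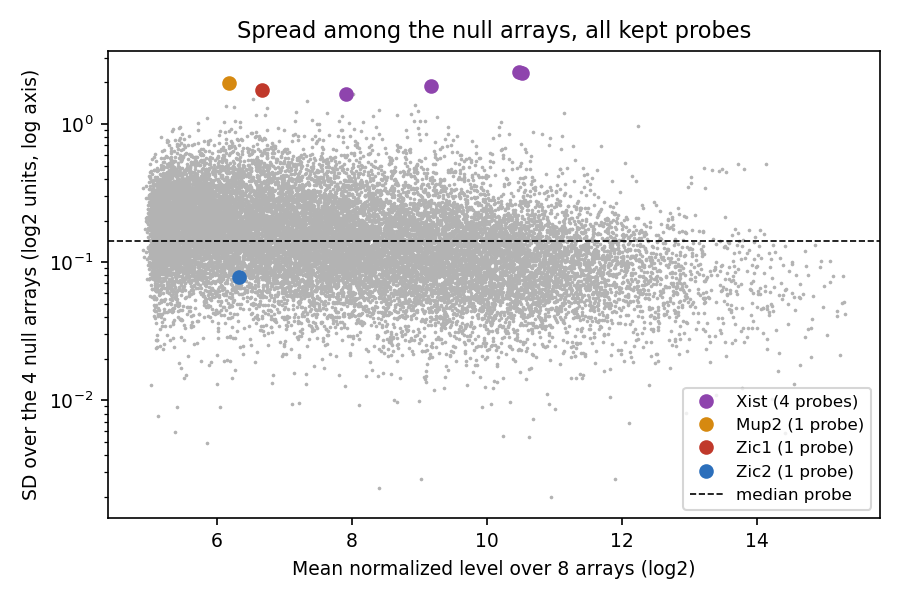
SD of the normalized log2 level over the 4 null arrays (log axis) against the mean level over all 8 arrays, 1 grey point per kept probe, with the probes of Xist, Mup2, Zic1 and Zic2 in colour and the median as a dashed line. Zic1 at 1.76 lies among the Xist probes and Mup2 at the top, while the kept Zic2 probe lies below the median of 0.14.

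Zic4, the partner of Zic1, was detected by 3 of its 5 probes, on null arrays alone. Its brightest probe (ILMN_2810424) had log2 levels of 6.90, 5.09, 4.62 and 7.46 in null replicates 1 to 4, against 4.43, 4.43, 4.51 and 4.35 in the wildtype replicates. It was detected in null replicates 1, 2 and 4 and in 0 wildtype replicates, and the groups did not overlap. Its intensity was 128, 72.6, 56.3 and 206 in the null replicates, against 50, 45.5, 51.4 and 40.0 in the wildtype replicates. As in Zic1, replicate 4 was highest, followed by replicates 1, 2 and 3. Unlike in Zic1, replicate 3 was not above background. Because the wildtype was never above background, only a bound on the fold can be given. The null mean was at least 1.46-fold higher in each of 3 background treatments, and at least 1.89-fold higher with the correction used here. The bound takes, on each wildtype array, the higher of the lowest detected signal and the probe's own signal.

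A second Zic4 probe (ILMN_1242831) was also highest in null replicates 4 and 1, with fewer arrays above background. Its log2 levels were 6.64, 4.61, 4.47 and 6.93 in null replicates 1 to 4, against 4.36, 4.36, 4.29 and 4.34 in the wildtype replicates. Only null replicates 1 and 4 were detected, and the groups did not overlap. The null mean was at least 1.23-fold higher in each background treatment. Another Zic4 probe (ILMN_1246394) was detected in null replicate 4 alone, at 4.79, 4.59, 4.62 and 5.34 in the null replicates and 4.43, 4.37, 4.63 and 4.51 in the wildtype replicates, where the groups overlapped and no fold can be given. The remaining 2 Zic4 probes, ILMN_1213145 and ILMN_1246325, were not above background on any array. The first lay between 4.47 and 4.77 in the null and between 4.40 and 4.54 in the wildtype, and the other between 4.80 and 4.99 in the null and between 4.76 and 5.01 in the wildtype. Different probes of Zic4 thus did not report alike, and the transcripts they match were not analysed here.

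Few probes on the array shared this pattern of detection. Of 45281 probes, 23059 were detected on 0 wildtype arrays, and 434 of these were detected on at least 2 null arrays, 2 of them the Zic4 probes above. A total of 163 probes were detected in null replicates 1 and 4 and on no wildtype array, again with 2 Zic4 probes among them. Detection on null replicates 1 and 4 and on no other array was seen for 72 probes, and on null replicates 2 and 3 and no other for 84 probes.

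**Figure D2:**
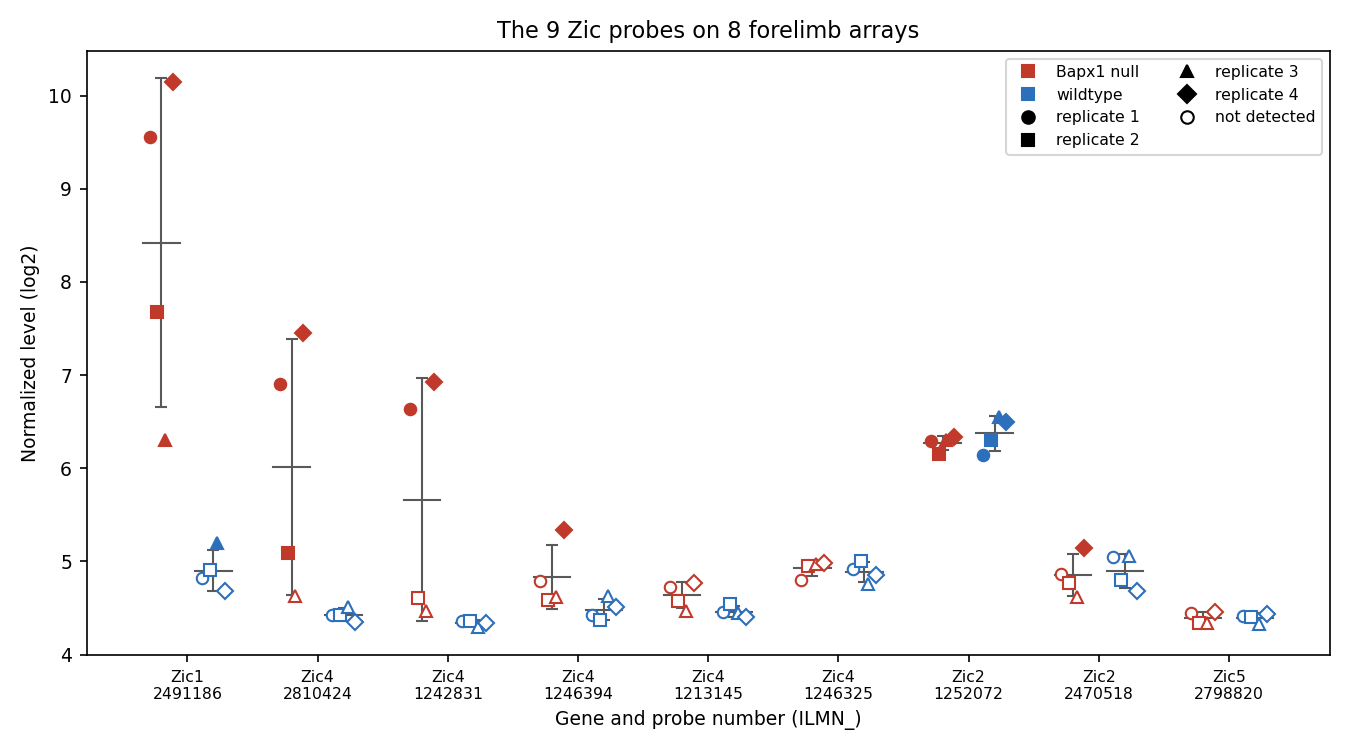
Normalized log2 level of each of the 9 Zic probes on the 4 null arrays (red, left of each pair) and the 4 wildtype arrays (blue, right), with filled symbols for detected and open symbols for not detected values. Horizontal lines are group means and bars 1 SD. Zic1 and 2 Zic4 probes spread upward in the null, with replicates 4 and 1 highest, while Zic2 and Zic5 stay level.

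Zic2 was expressed in both groups at a low, even level. Its kept probe (ILMN_1252072) had log2 levels of 6.30, 6.16, 6.30 and 6.33 in the null replicates, against 6.14, 6.31, 6.55 and 6.50 in the wildtype replicates, and was detected on all 8 arrays. The groups overlapped, with a log2 difference of -0.10 ± 0.10 (SE). Its null SD ranked 16527 of 20593, and its levels lacked the spread seen for Zic1. The other Zic2 probe (ILMN_2470518) was detected in null replicate 4 alone, at 5.15, where the other arrays of both groups lay between 4.62 and 5.06. Zic5, the partner of Zic2, was not above background on any array, with its single probe (ILMN_2798820) between 4.33 and 4.45.

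**Figure D3:**
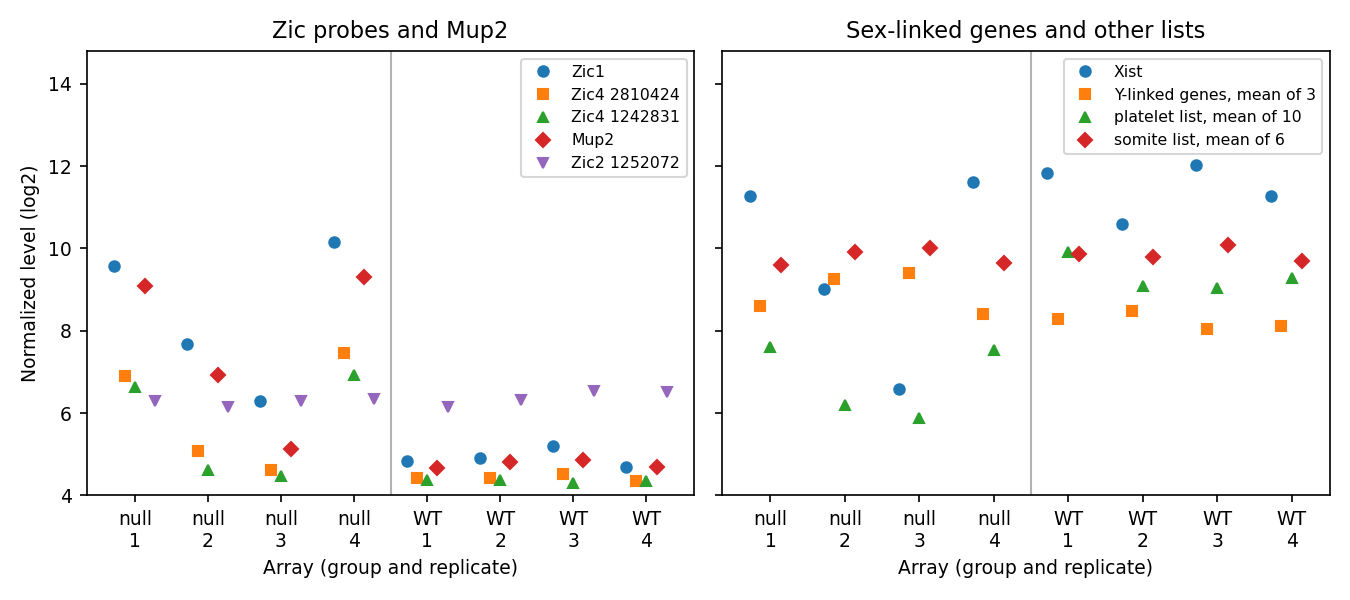
Normalized log2 level on each array, null replicates left of the wildtype replicates. Left, single probes of Zic1, Zic4, Mup2 and Zic2; right, Xist and the means of the Y-linked, platelet and somite lists. Among the null arrays, Zic1, Zic4, Mup2 and Xist are highest in replicates 1 and 4 and lowest in replicate 3. The Y-linked mean and, over a narrower range, the somite mean are lower in replicates 1 and 4 than in 2 and 3, and Zic2 is nearly level.

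By the root mean square difference between profiles centred on their own means over 8 arrays, the Zic4 probes ILMN_2810424 and ILMN_1242831 lay nearest to Zic1 within the family, at 1.01 and 1.17 log2 units. The other 6 Zic probes lay between 1.83 and 2.10 away. Among all 11037 genes, the nearest profile to Zic1 was that of Mup2, at 0.39. Its probe read 9.08, 6.92, 5.12 and 9.30 in the null replicates, against 4.67, 4.80, 4.87 and 4.69 in the wildtype replicates. It was detected on 4 null arrays and 0 wildtype arrays. Mup2 encodes a lipocalin that carries pheromones and is made mainly in the liver of adult mice. It belongs to a family of near-identical genes, so the assignment to one member is uncertain: of 9 probes named for 6 Mup genes, 4 were detected on a null array and 0 on a wildtype array. Of the liver genes looked at after these values were seen, Alb, Afp, Fgb and Apoa2 were detected on 0 arrays and Apoa1 on all 8, between 5.34 and 5.84.

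After Mup2 the nearest profiles were far less alike. They were those of Bapx1 itself (1.04), the homeobox gene Barx2 (1.18), the collagen gene Col14a1 (1.33), the glutamate transporter gene Slc1a3 (1.37), the Iroquois factor gene Irx3 (1.42), the bicarbonate transporter gene Slc4a4 (1.44) and Ppp1r14c (1.46). Profiles picked for likeness to Zic1 had to be higher in the null, so no test is given for them. Barx2 read 8.84, 8.35, 8.26 and 8.46 in the null replicates, against 5.95, 6.37, 6.41 and 6.29 in the wildtype replicates. Among the null arrays it was highest in replicate 1, followed by replicates 4, 2 and 3. Col14a1, Slc1a3, Irx3, Slc4a4 and Ppp1r14c had the null replicates in the same order as Zic1, over narrower ranges, such as 8.36, 7.94, 7.68 and 8.89 for Irx3, against 7.12, 7.07, 7.26 and 6.83 in the wildtype replicates. Scaled to unit SD before the distance, a measure chosen after seeing the data, the list of 8 nearest genes shared 2 with this one, Mup2 and Irx3. The kept Zic2 probe had its nearest profiles in the limb bud factor gene Hand2 (0.048), Mdm4 (0.055), Zc3hav1l (0.065), Ghdc (0.066) and Trmt6 (0.068).

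Some other genes also differed over these null arrays, among them sex-linked, platelet, skeletal muscle and trunk Hox genes. Xist had levels of 11.27, 9.0, 6.59 and 11.60 in null replicates 1 to 4, against 11.84, 10.58, 12.03 and 11.28 in the wildtype replicates. The mean of the 3 Y-linked genes Eif2s3y, Kdm5d and Uty was 8.60, 9.26, 9.40 and 8.42 in the null replicates, against 8.29, 8.48, 8.05 and 8.13 in the wildtype replicates. Both kinds of transcript were present on all 8 arrays. Between the groups, Eif2s3y was higher in the null by 0.83 ± 0.18 (SE, adjusted p = 0.0235) and passed the threshold. Kdm5d at 0.98 (adjusted p = 0.053), Uty at 0.25 (adjusted p = 0.58) and Xist at -1.82 (adjusted p = 0.33) did not pass. Null replicates 4, 1, 2 and 3, in that order, ran from high to low for Zic1, Mup2 and Xist and from low to high for the Y-linked mean. The mean of 10 platelet genes was 7.61, 6.20, 5.88 and 7.54 in the null replicates, against 9.90, 9.09, 9.03 and 9.28 in the wildtype replicates, where Zic1 was near background. The mean of 9 trunk Hox genes, which mark position along the body, was 7.93, 7.54, 7.40 and 7.91 in the null replicates, against 7.88, 7.82, 7.64 and 7.71 in the wildtype replicates. Null replicates 1 and 4 both lay above replicates 2 and 3 in 10 of 10 platelet genes, 8 of 12 skeletal muscle genes, 6 of 9 trunk Hox genes and 6 of 16 limb patterning genes, where 28.9% of the 11037 genes had this order. Of the other lists, described below, it held in 5 of 10 macrophage, 5 of 10 endothelial, 4 of 9 dermis and 3 of 7 epithelial genes. It held in 2 of 4 reported Zic targets and in 2 of 6 genes of the Gli and Glis list. Among neuron and neural crest genes it held in 3 of 8 and 2 of 7. It held in 3 of 13 cartilage, 2 of 9 joint interzone, 1 of 6 somite and 1 of 11 neighbouring genes. In erythroid, dermomyotome and neural progenitor genes it held in 0 of 8, 0 of 4 and 0 of 2. The part of the embryos' sex, of other cells or of the position of the dissected tissue in the Zic1 and Zic4 levels was not tested.

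With null replicates 2 and 3 left out, since they stood apart for Xist, the log2 difference of Zic1 was 4.92, and with replicates 1 and 4 left out instead it was 2.12. When the fit also held the mean Y-linked level, the Zic1 difference was 5.67. Zic1 was thus above its wildtype level in either pair of null arrays, by very different amounts.

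Zic4, with the probes nearest to the Zic1 profile within the family, is the neighbour of Zic1. In the RefSeq annotation of build GRCm38.p6, the starts of Zic1 (minus strand) and Zic4 (plus strand) on chromosome 9 are 3204 bases apart and point away from each other. Their start regions, 250 bases before and 50 after the start, cover chr9:91365719-91366018 and chr9:91368722-91369021. They differ in make-up: the Zic1 region has 66.0% G and C and a ratio of observed to expected CpG of 0.995, higher than in 94.0% of promoters, while the Zic4 region has 44.4% and 0.376, against a median ratio of 0.373. The Zic5 region (chr14:122465609-122465908, minus strand) has 62.4% and 0.458. Zic2 had no entry in the sequence table.

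The motifs searched on both strands of the 250 bases before each start were TAAGTG and CAAGTG, which are cores bound by NKX-type homeodomains such as that of Bapx1, and GGGTGGT, a core shared by GLI and ZIC fingers. TAAGTG and CAAGTG differ only in their first base, so that no site matches both. TAAGTG was not found before any gene with a sequence. CAAGTG was found before Zic4, with its first base 26 bases before the start, and before Zic5, 71 bases before the start. The windows show the matches, in capitals, because Zic4 went with Zic1 while Zic5 was at background.
Zic4, chr9:91368934-91368963, plus strand: tgtagaagttatCAAGTGggatttgcggcg
Zic5, chr14:122465712-122465741, minus strand: gagcccggcggcCAAGTGcaaactttctgc
CAAGTG occurs in 11.6% of 32851 promoters, TAAGTG in 7.92% and GGGTGGT in 3.92%. GGGTGGT was found before Zic5 alone, on the opposite strand and with no overlap with its CAAGTG, and 0 of the 3 motifs were found in the Zic1 window. A match is a description of letters, and nothing is drawn from those not found.

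Genes around the Zic loci were compared to see whether the neighbourhood moved with Zic1. Of the 5 nearest genes on each side of the 2 loci, 19 of 20 had a probe and 11 were kept. Of these, 2 rose and 0 fell, where 6.12% of 11037 genes tested passed in either direction, 2.76% higher and 3.36% lower. The median over the 11, which pools the 2 loci, was -0.03 against 0.01 over all genes. Both genes that rose were at the Zic1 and Zic4 locus: Plscr4, a phospholipid scramblase gene, by 0.60 ± 0.11 (SE, adjusted p = 0.011), and Adamts7, a metalloprotease gene, by 0.28 ± 0.07 (SE, adjusted p = 0.047). The other kept genes further out at this locus were Ctsh (-0.11), Morf4l1 (-0.05) and Plscr1 (-0.02). Those further out at the Zic2 and Zic5 locus were Tm9sf2 (-0.15), Ggact (0.07) and Tmtc4 (-0.31). Plscr4 read 6.37, 6.74, 6.67 and 6.77 in the null replicates, against 5.81, 6.10, 6.17 and 6.07 in the wildtype replicates, without the spread of Zic1. The call of Adamts7 was lost in 7 of 8 fits that left out 1 array: all but that without null replicate 1. Directly beside the pair, Tbc1d2b differed by 0.25 (adjusted p = 0.083) and Plscr5 was not above background on any array. Beside Zic2 and Zic5, Clybl differed by -0.30 (adjusted p = 0.34) and Pcca by -0.03 (adjusted p = 0.88). Of the neighbours with a probe that were not kept, 2 were detected on any array, and they were picked out after their values were seen. Plscr2, at the Zic1 and Zic4 locus, was detected on 3 null and 0 wildtype arrays, near background. It read 5.09, 5.12, 4.65 and 5.17 in the null replicates and 4.73, 4.76, 4.96 and 4.99 in the wildtype replicates, so the groups overlapped. Gpr18, at the other locus, was detected on 0 null arrays and 1 wildtype array.

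**Figure D4:**
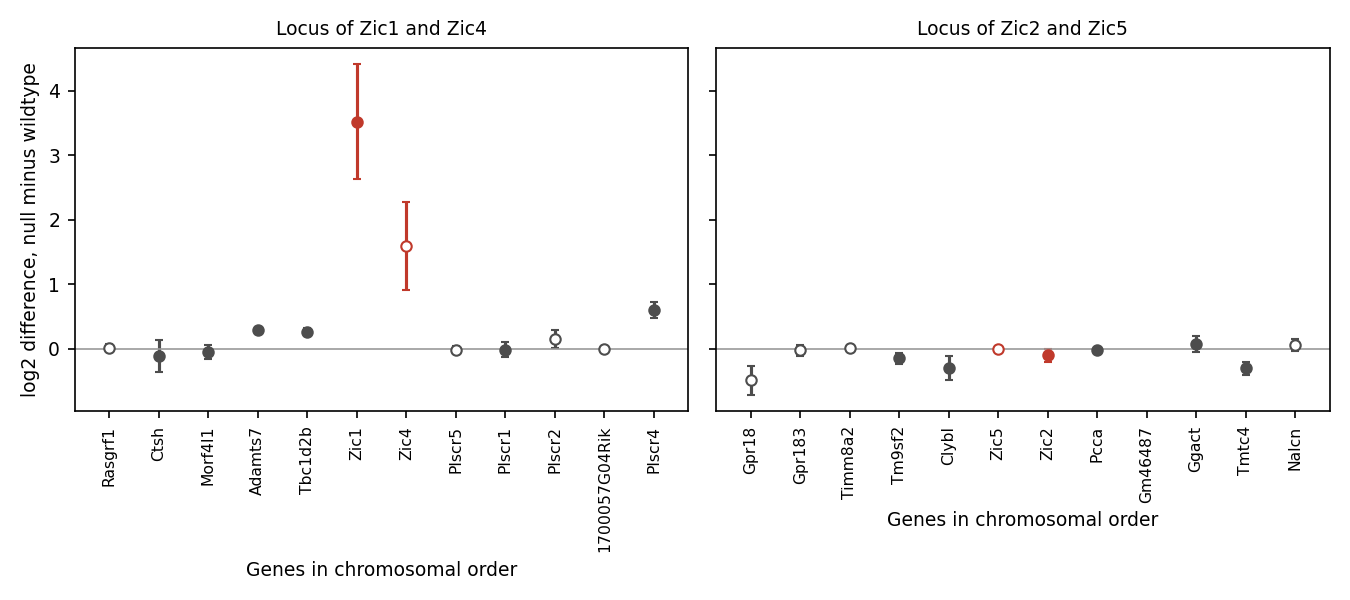
Log2 difference, null minus wildtype, of genes in chromosomal order around the 2 Zic loci, with bars of 1 SE from the arrays' spread in each group. Zic genes are red, kept probes filled and others open, and genes without a point have no probe. Zic1 at 3.52 and Zic4 stand far above their neighbours, of which Plscr4 at 0.60 is the highest.

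Few relatives and reported targets of the family passed the test. The list of relatives held Mdfic and Sufu beside Gli and Glis genes. Of its 6 kept genes, 1 rose and 0 fell, beside 2.76% higher and 3.36% lower among all genes tested. Their median was 0.24. Glis1 rose by 0.46 ± 0.12 (SE, adjusted p = 0.047), a call lost in 7 of 8 fits that left out 1 array, all but that without wildtype replicate 4. Of 12 genes reported elsewhere as Zic targets, 4 were kept, 0 rose and 1 fell: Apoe, an apolipoprotein gene, by -0.65 ± 0.12 (SE, adjusted p = 0.011). The median of the 4 was 0.16. Apoe is also expressed by macrophages, of whose 10 kept markers 9 fell, and their part in its change was not tested.

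Most other genes of the tissues in which Zic1 is best known were near background or did not pass. Of 22 neural progenitor genes, 18 had a probe and 2 were kept, with a median of 0.33, of which Sox21 rose by 0.95 ± 0.14 (SE, adjusted p = 0.0029). Of 8 kept neuron genes, with a median of 0.01, 1 rose and 0 fell: Stmn2, a microtubule regulator gene, by 1.02 ± 0.15 (SE, adjusted p = 0.0030). Of 7 kept neural crest and Schwann genes, 1 rose and 3 fell, with a median of -0.23. Kit rose by 0.66 ± 0.10 (SE, adjusted p = 0.0046), while Tfap2a fell, at -0.84 ± 0.15 (SE, adjusted p = 0.0087) and Ednrb by -0.55 ± 0.08 (SE, adjusted p = 0.0043). Mitf, of that list and picked out after its values were seen, was detected on null replicates 1 and 4 and on 0 wildtype arrays, at 5.91, 4.83, 4.75 and 5.80 in the null replicates and between 4.55 and 4.93 in the wildtype. Other members that were not kept went the other way or were absent. Dct was detected on 0 null and 3 wildtype arrays and S100b on 0 null and 2 wildtype arrays. Foxd3, Erbb3, Cdh19 and Pmel were not above background on any array. Neither Sox21 nor Stmn2 was spread over the null arrays as Zic1 was: Sox21 read 6.12, 6.57, 6.75 and 6.45 there against 5.35, 5.72, 5.45 and 5.57 in the wildtype, and was lowest in null replicate 1.

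Of 6 kept somite and sclerotome genes, with a median of -0.08, 0 passed the test, among them Meox2 at 0.07 (adjusted p = 0.79) and Foxc1 at 0.34 (adjusted p = 0.21). Their mean was 9.60, 9.92, 10.02 and 9.65 in the null replicates, against 9.87, 9.78, 10.08 and 9.70 in the wildtype replicates. Of 4 kept dermomyotome and muscle progenitor genes, with a median of -0.01, 1 rose, the coactivator gene Eya1, by 1.88 ± 0.23 (SE, adjusted p = 0.0015). Eya1 read 7.11, 7.63, 7.69 and 7.43 in the null replicates, highest where Zic1 was lowest, against 5.13, 5.51, 6.31 and 5.41 in the wildtype replicates. Of 9 kept dermis and body wall genes, with a median of -0.23, 1 rose and 4 fell, with Alx1 at -1.10 ± 0.10, Alx4 at -0.67 ± 0.11 and Twist2 at -0.53 ± 0.07 (SE, adjusted p of 0.00047, 0.0074 and 0.0021). Of 9 kept trunk Hox genes 0 passed, with a median of -0.16 and with Hoxd8 at -0.30 (adjusted p = 0.090) and Hoxc6 at -0.16 (adjusted p = 0.78) the brightest. Hoxc9, of that list, was detected on 2 null arrays and 0 wildtype arrays, at 6.51, 4.65, 4.86 and 5.19 in the null replicates and between 4.40 and 4.49 in the wildtype; it was picked out after its values were seen.

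In the limb and cartilage lists most kept members did not pass, while in the joint interzone list most did. Of 16 kept limb patterning genes, with a median of -0.01, 1 rose, Hoxd12 (0.60 ± 0.12 SE, adjusted p = 0.017), and 1 fell, Lhx2 (-0.46 ± 0.11 SE, adjusted p = 0.033). The call of Hoxd12 was lost without null replicate 2, 3 or 4, and that of Lhx2 without null replicate 1 or 4 or wildtype replicate 1, 2 or 3. Of 13 kept cartilage genes, with a median of 0.20, 2 rose. Chad rose by 0.84 ± 0.13 (SE, adjusted p = 0.0054) and Col2a1 by 0.32 ± 0.08 (SE, adjusted p = 0.046). The call of Col2a1 was lost in 7 of 8 fits that left out 1 array, all but that without wildtype replicate 2. Chad was detected on 4 null arrays and 1 wildtype array, so it was kept through the group where it was higher. Of 9 kept joint interzone genes 6 rose and 0 fell, where 2.76% of all genes tested rose, with a median of 0.61 and the Wnt inhibitor gene Dkk3 at 1.25 ± 0.17 (SE, adjusted p = 0.0028). Of these 6 calls, that of Wnt4 held in 1 of 8 fits that left out 1 array, without wildtype replicate 2, and that of Jun in 2, without wildtype replicate 2 or 4. Wnt16, also among the 6, was detected on 4 null and 0 wildtype arrays, so it was kept only through the group where it was higher.

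Markers of other cells that the gate could hold fell or did not pass. All 10 kept platelet genes fell, with a median of -2.66 and Ppbp at -3.55 ± 0.50 (SE, adjusted p = 0.0029), and 9 of 10 macrophage genes fell, with a median of -1.62 and Adgre1 at -2.25 ± 0.16 (SE, adjusted p = 0.00011). Of the macrophage genes, C1qb, C1qc and Tyrobp were detected on 4 wildtype and 0 null arrays. They were thus kept only through the group where they were higher, which favours a fall. Adgre1 and Csf1r, of the same list, and the platelet gene Gp1bb were detected on 4 wildtype and 2 null arrays. They too would not have been kept on their null arrays alone. Of 12 skeletal muscle genes 9 fell, with a median of -0.64 and Mylpf at -0.82 ± 0.10 (SE, adjusted p = 0.0014), and of 10 endothelial genes 3 fell, with a median of -0.41 and Esam at -0.93 ± 0.15 (SE, adjusted p = 0.0065). Of 8 erythroid and 7 epithelial genes 0 passed, with medians of -0.38 and 0.05. In these lists 0 members rose, and the part of such cells in the Zic1 level was not tested. With the scaling of the study's methods, by the median absolute deviation, 13 of 57 calls among listed genes remained. Among the genes named here these were Sox21, Eya1, Alx1, Ppbp, Gp1bb, Adgre1, Csf1r and C1qb. Of the 6 joint interzone calls 0 remained.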

How the data were processed

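The arrays were Illumina MouseWG-6 arrays, 1 for each of the 4 Bapx1 null and 4 wildtype samples, read by the authors with GenomeStudio, for which no version is known here. Probe intensity was deposited on a linear scale, holds no value below 0 and is not normalized between arrays. The authors deposited, next to each intensity, a fraction that is named as a detection p-value but grows with brightness, so 1 minus this fraction served as the detection p. Processed log2 values were deposited as well, with an unknown baseline per probe. The 45281 rows of the tables were matched on how arrays differed (largest distance 3.01e-06, next-best row at least 0.018). The platform annotation named 1 gene for 34885 probes, several for 18 and none for 10378.

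Intensities were background-corrected in R 4.3.3 with the nec function (limma 3.58.1), a normexp correction that infers negative controls from detection p (offset of 16), then quantile-normalized and log2-transformed. Probes detected on at least 4 of 8 arrays were kept, whatever their group, and genes stood by their brightest probe. Groups were compared with limma's moderated test (lmFit, eBayes), which was two-sided. Its p-values were adjusted by Benjamini-Hochberg over 11037 genes, with a threshold of 0.05, and measure the spread between these samples. The number of arrays limits the precision. The chain was tested on simulated data.

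Members, lists and alternatives were chosen with earlier results of these data known. Named are all Zic probes, Bapx1 and sex-linked genes; up to 3 members of each list by size of change among those past the threshold, or else the brightest 2; neighbours that passed or the nearest expressed ones; and the 8 genes nearest in profile to Zic1 and 5 nearest to Zic2. Genes said to be chosen or picked after their values were seen fall outside this rule. So do the Sox21, Eya1 and Plscr4 detail by array, the neighbours further out and genes named only for the arrays that detected them. Alternatives covered scaling, background, filter, variance model, the deposited log2 values, array weights, a replicate block, a Y-linked term and leaving out arrays. Same-numbered null and wildtype arrays share only a number. No chip is given by the labels, so no chip block was fitted. Promoter sequences are from RefSeq (GRCm38.p6) and matched 3 of the 4 genes by symbol.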

Additional observations from a re-analysis of the deposited data

Results flagged for a closer look

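Within single groups of 4 arrays, 4 of 58 sets of values had an array far from the other 3, measured as its gap to the nearest array over the whole range (Dixon's criterion). Chance flags about 1 in 20 groups. For the Zic4 probe ILMN_1246325, which was not above background on any array, the null arrays gave 0.837. The mean of the joint interzone list gave 0.836 in the null and 0.914 in the wildtype, and the mean of the epithelium list gave 0.833 in the null. The Zic1 and the detected Zic4 probes did not reach that criterion in either group.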

How the results depend on the processing

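Of 250 recomputed results, 224 stayed within 1 SD of the replicates (counts within 1.5 times) and 26 moved further. Differences of probes with little or no difference changed sign in some of 20 alternatives: 8 for Zic5, 5 for Zic2 ILMN_2470518, 2 for Zic4 ILMN_1246325 and 1 for Zic2 ILMN_1252072 (0.01). The Zic1 difference (3.52) was positive in all 20: 2.42 to 2.65 with other background treatments or the deposited values, 2.95 to 4.21 without 1 array, 4.92 without null replicates 2 and 3, 2.12 without replicates 1 and 4 (chosen after seeing the data) and 5.67 with the Y-linked term. Its null SD (1.76) was 1.29 to 2.07 without 1 array, and 0.42 and 0.98 without those pairs. Genes past the threshold numbered 676 (45.1% higher), 463 to 650 without 1 array, and 96 with scaling by the median absolute deviation (21.9% higher). They numbered 318 in the deposited log2 values, 1508 with array weights, 395 with the methods' variance test and 448 with a replicate block, although same-numbered arrays shared no deviation (correlations 0.06, 0.24, -0.18 and -0.26). Of 57 calls among listed genes, 13 remained with that scaling, 31 with the Y-linked term and 44 without null replicates 2 and 3. Of the 8 genes nearest to Zic1, 5 to 8 recurred without 1 array, 3 without null replicates 1 and 4 and 2 at unit SD. The cause was not tested. Probes near background (Zic5, 5 Zic4 probes, 1 Zic2 probe) give bounds or no fold.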
